A study of Mus musculus with 4 samples.

Results

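The transcription factors *Gata1*, *Gata2*, *Klf1*, *Tal1*, *Zfpm1*, *Spi1*, *Cebpa*, *Cebpe*, *Irf8*, and *Gfi1* set the fate of blood progenitors. These 10 genes were chosen by name, and all of them were found among the 32285 genes counted in spleen and bone marrow (BM) of mice with and without a mammary tumor. 5 of them act mainly on the erythroid side (*Gata1*, *Gata2*, *Klf1*, *Tal1*, and *Zfpm1*) and 5 on the myeloid side (*Spi1*, *Cebpa*, *Cebpe*, *Irf8*, and *Gfi1*).

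GATA1 is the zinc finger protein without which red cells do not form and megakaryocytes do not mature, and GATA2 is its relative in stem and progenitor cells, mast cells, and basophils, whose place at shared sites GATA1 takes as red cells mature. KLF1 switches on globin and other red cell genes through CACC boxes. TAL1 binds DNA as a dimer with an E protein in a complex with LMO2 and LDB1, and ZFPM1, also called FOG-1, is a cofactor that binds GATA proteins. SPI1, also called PU.1, drives myeloid and B cell genes and is known for mutual antagonism with GATA1. CEBPA opens the path to granulocytes and monocytes, CEBPE acts later in granulocytes, IRF8 favors monocytes and dendritic cells over neutrophils, and GFI1 is a repressor that favors neutrophils.

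Single-cell RNA-sequencing (scRNA-seq), in which a droplet barcode stands for a cell and a unique molecular identifier (UMI) for 1 captured RNA, was performed with 1 library for each of 4 groups. The spleen of control mice (CS) and of tumor-bearing mice (TS) and the BM of the same kinds of mice (CBM and TBM) were taken, all from C57BL/6J mice aged 8 to 16 weeks, which the methods give as female. The tumor was PyMT-B6, a mammary tumor line from an MMTV-PyMT mouse, which carries polyomavirus middle T behind the promoter of the murine mammary tumor virus. The comparisons ask how the tumor in each tissue, and the tissue with or without the tumor, moved these factors. The number of mice behind a library is not given in the sources used here. Lineage-positive cells were depleted, and c-Kit+ hematopoietic gates with or without Sca-1 and CD45- gates based on CD31 and CD51 were pooled at equal ratios, so shares of barcodes describe this pool and not the organ. Each group thus rests on a single library without replicates, and groups were not tested against each other. Values in parentheses after a value are its exact 95% interval, which covers counting error alone (Poisson for levels and for observed over expected, conditional binomial for ratios, and Clopper-Pearson for shares).

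The libraries held between 101811035 and 176094297 UMIs. Barcodes with at least 1000 genes and at most 10% mitochondrial UMIs numbered 3236 in CS, 5188 in TS, 3497 in CBM, and 4340 in TBM, with median depths between 13738 and 26808 UMIs, and 27 of the 16261 barcodes occurred in more than 1 library. They were clustered with the 10 factors and 17 related genes left out. Of 37 clusters, 31 were named from marker genes and 6 were not, and the latter held 118 barcodes of CS, 106 of TS, 132 of CBM, and 487 of TBM. Classes included hematopoietic stem and progenitor cell (HSPC)-like, granulocyte-monocyte progenitor (GMP)-like, and a class led by *Scin*, *Apoe*, *St8sia6*, and *Slc45a3*, which no marker list fit and which is called Scin-high. Its barcodes fell into 1 cluster for CS (801 barcodes), 1 for TS (476), and 1 for CBM (263) and TBM (129), and the early erythroid-like class likewise into 1 cluster mostly of CS (679 barcodes) and 3 mostly of TS, so these clusters may mark libraries as well as cells. Levels are the UMIs of a gene for every 1000000 UMIs of a class in a library (CPM), and are given for at least 50 barcodes. They count the 3′ ends of transcripts and do not rank genes against each other. Free RNA, read from barcodes with fewer than 100 UMIs, held UMIs of each of the 10 factors, so its level stands beside the low values.

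In GRCm38, *Gata1* is ENSMUSG00000031162 on chromosome X, from 7959260 to 7978071 on the minus strand, *Gata2* is ENSMUSG00000015053 on chromosome 6, from 88193891 to 88207032 on the plus strand, and *Klf1* is ENSMUSG00000054191 on chromosome 8, from 84901928 to 84905291 on the plus strand. *Tal1* is ENSMUSG00000028717 on chromosome 4, from 115056426 to 115071755 on the plus strand, and *Zfpm1* is ENSMUSG00000049577 on chromosome 8, from 122282141 to 122337251 on the plus strand. On the myeloid side, *Spi1* is ENSMUSG00000002111 on chromosome 2, from 91082390 to 91115756 on the plus strand, *Cebpa* is ENSMUSG00000034957 on chromosome 7, from 35119293 to 35121928 on the plus strand, and *Cebpe* is ENSMUSG00000052435 on chromosome 14, from 54710360 to 54712174 on the minus strand. *Irf8* is ENSMUSG00000041515 on chromosome 8, from 120736358 to 120756694 on the plus strand, and *Gfi1* is ENSMUSG00000029275 on chromosome 5, from 107716657 to 107726036 on the minus strand. *Zfpm1* and *Irf8* both lie within the annotated gene *Gm20388* of the same strand, which is not among the genes counted in these files. *Cebpa* overlaps *Gm45091* and *Gfi1* overlaps *A430072P03Rik*, both on the opposite strand and both counted, and Cell Ranger at its default settings, which the methods name, assigns reads to genes by strand.

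**Figure D1:**
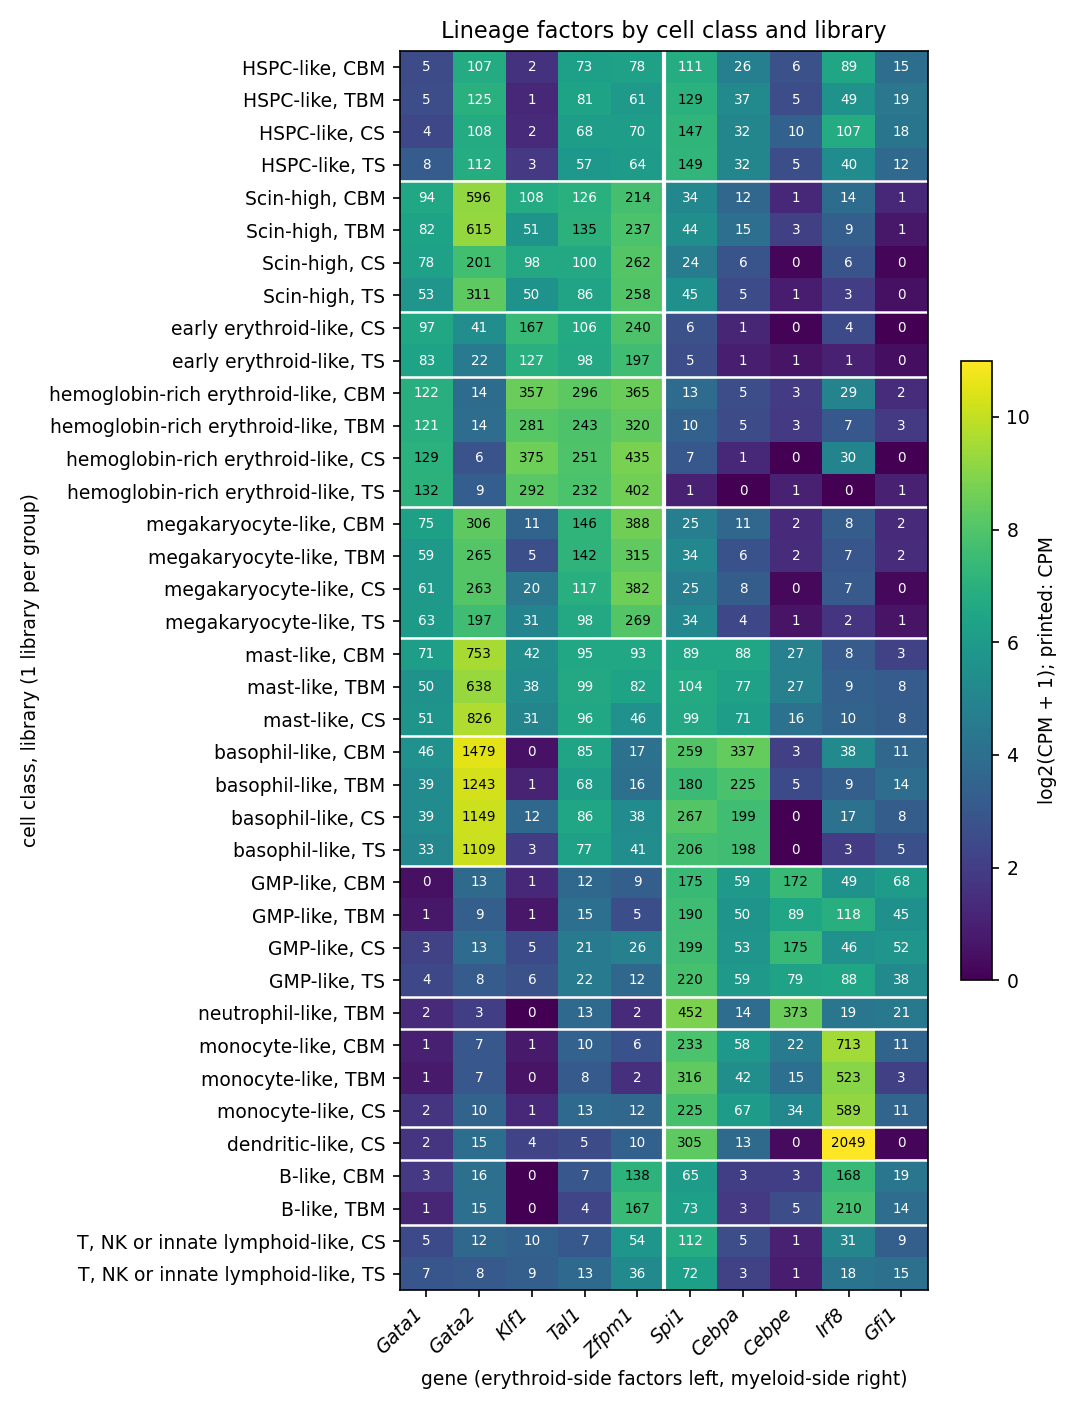
Level of each factor (columns, erythroid-side factors left) in each cell class and library (rows), colored by log2(CPM + 1) with CPM printed. *Gata1*, *Klf1*, and *Tal1* are brightest in the hemoglobin-rich erythroid-like rows, *Zfpm1* in these and the megakaryocyte-like rows, *Gata2* in the basophil-like rows, and *Irf8* in the dendritic-like row.

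*Gata1* was highest in hemoglobin-rich erythroid-like barcodes, at 129 CPM (112 to 149) in CS, 132 (111 to 157) in TS, 122 (107 to 139) in CBM, and 121 (107 to 136) in TBM. The 4 intervals overlapped, and no library stood apart. Early erythroid-like barcodes, at 97.0 CPM in CS and 83.4 in TS, and Scin-high barcodes, at 52.7 to 93.5 CPM over the 4 libraries, followed with ranges that overlapped. The ranges of Scin-high, megakaryocyte-like (58.9 to 74.6 CPM), and mast-like barcodes (49.7 to 71.1 CPM) overlapped and did not order these classes. Basophil-like barcodes held 32.9 to 45.8 CPM. In HSPC-like barcodes *Gata1* was at 4.24 to 8.27 CPM, in GMP-like at 0.396 to 4.24 CPM, and in B-like at 1.29 to 2.53 CPM, all under its level in free RNA (57.4 CPM in CS, 64.3 in TS, 20.6 in CBM, and 13.5 in TBM).

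*Klf1*, the activator of globin genes, was also highest there. Hemoglobin-rich erythroid-like barcodes held 375 CPM in CS, 292 in TS, 357 in CBM, and 281 in TBM, with the control library above the tumor-bearing one in both tissues. Early erythroid-like barcodes held 167 CPM in CS and 127 in TS. Scin-high barcodes held 98.3 CPM in CS, 49.7 in TS, 108 in CBM, and 51.02 in TBM, and mast-like barcodes 30.9 to 42.5 CPM. Megakaryocyte-like barcodes were the next, at 19.6 CPM in CS, 30.5 in TS, 10.6 in CBM, and 5.39 in TBM, of which only the CBM value lay over free RNA (74.8 CPM in CS, 67.1 in TS, 9.89 in CBM, and 7.93 in TBM). The B-like barcodes of CBM and TBM had 0 UMIs of *Klf1*, where 3 counts would be 1.90 and 3.86 CPM. HSPC-like barcodes held 1.32 to 2.51 CPM.

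*Tal1* and *Zfpm1*, which encode parts or cofactors of GATA complexes, were broader. *Tal1* was highest in hemoglobin-rich erythroid-like barcodes (251 CPM in CS, 232 in TS, 296 in CBM, and 243 in TBM), then in megakaryocyte-like barcodes (117 CPM in CS, 97.8 in TS, 146 in CBM, and 142 in TBM). The ranges of the megakaryocyte-like, Scin-high (86.0 to 135 CPM), early erythroid-like (98.1 to 106 CPM), and mast-like barcodes (95.4 to 99.4 CPM) overlapped. HSPC-like barcodes still held 68.1 CPM in CS, 57.0 in TS, 72.9 in CBM, and 81.2 in TBM. *Zfpm1* was at 435 CPM in CS, 402 in TS, 365 in CBM, and 320.1 in TBM in hemoglobin-rich erythroid-like and 382 CPM in CS, 269 in TS, 388 in CBM, and 315 in TBM in megakaryocyte-like barcodes, ranges that overlapped. It also stood at 138 CPM in CBM and 167 in TBM in B-like and at 53.5 CPM in CS and 35.9 in TS in T, NK or innate lymphoid-like barcodes. The B-like values were over the free RNA of those libraries (115 CPM in CS, 126 in TS, 61.9 in CBM, and 49.2 in TBM), and no other erythroid-side factor was over free RNA in B-like barcodes.

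The stretches just before RefSeq start sites of the 4 factors highest in hemoglobin-rich erythroid-like barcodes are shown so that their letters can be compared, on GRCm38.p6 and ending before the first annotated exon. The *Gata1* start site lies within the gene as annotated above. Capitals mark AGATAA or TGATAA, the letters GATA proteins favor, and CACCC, those KLF1 favors, on either strand (in reverse, TTATCT or TTATCA, and GGGTG). Of 32851 promoters of 250 bases, 16.6% held AGATAA or TGATAA, 52.0% held CACCC, and 66.2% held CANNTG, the E-box of TAL1. Promoter entries were found for 8 factors, 12 entries in all. *Spi1* and *Cebpe* had none. 2 entries held AGATAA or TGATAA, 7 held CACCC, and 5 held CANNTG.
Gata1 promoter: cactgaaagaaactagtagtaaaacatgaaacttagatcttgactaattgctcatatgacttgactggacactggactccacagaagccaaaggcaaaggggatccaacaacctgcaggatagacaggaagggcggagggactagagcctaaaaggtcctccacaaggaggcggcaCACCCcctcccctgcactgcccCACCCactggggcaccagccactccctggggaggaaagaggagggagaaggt
Klf1 promoter: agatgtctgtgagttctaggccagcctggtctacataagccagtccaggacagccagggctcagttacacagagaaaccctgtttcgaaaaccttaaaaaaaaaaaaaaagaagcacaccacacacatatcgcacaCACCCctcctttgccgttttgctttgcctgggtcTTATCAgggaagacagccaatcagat
Tal1 promoter: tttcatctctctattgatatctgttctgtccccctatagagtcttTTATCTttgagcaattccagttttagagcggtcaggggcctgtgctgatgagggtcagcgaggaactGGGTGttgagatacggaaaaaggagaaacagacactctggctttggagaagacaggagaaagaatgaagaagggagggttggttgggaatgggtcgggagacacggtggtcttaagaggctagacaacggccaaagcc
Zfpm1 promoter: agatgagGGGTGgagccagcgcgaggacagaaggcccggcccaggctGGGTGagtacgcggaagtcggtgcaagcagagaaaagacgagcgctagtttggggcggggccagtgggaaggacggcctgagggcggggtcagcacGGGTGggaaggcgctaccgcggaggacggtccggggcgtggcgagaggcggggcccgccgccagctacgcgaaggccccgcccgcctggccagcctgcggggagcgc
They lie at chrX:7967911-7968160 (minus strand), chr8:84901732-84901927, chr4:115056176-115056425, and chr8:122281891-122282140 (plus strand). The *Klf1* entry held TGATAA in reverse 80 bases before the entry's start site and the *Tal1* entry AGATAA in reverse 205 bases before it, while the *Gata1* and *Zfpm1* entries held 2 and 3 CACCC and no such GATA letters. These matches describe letters and not bound sites, and the levels above were not tested against them.

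*Gata2* was highest outside the red cell classes. Basophil-like barcodes held 1149 CPM (1099.7 to 1199.7) in CS, 1109 (1004 to 1223) in TS, 1479 (1429 to 1531) in CBM, and 1243 (1207 to 1279) in TBM, and mast-like barcodes 826 CPM in CS, 753 in CBM, and 638 in TBM. These ranges did not overlap. Scin-high barcodes followed, with spleen and BM apart, at 201 CPM in CS, 311 in TS, 596 in CBM, and 615 in TBM. Megakaryocyte-like barcodes held 263 CPM in CS, 197 in TS, 306 in CBM, and 265 in TBM. HSPC-like barcodes were next and close to each other, at 108 CPM (96.9 to 119.6) in CS, 112 (105 to 118) in TS, 107 (101.5 to 113) in CBM, and 125 (119.9 to 131) in TBM. Early erythroid-like barcodes held 40.9 CPM in CS and 21.6 in TS, under free RNA (66.7 CPM in CS, 42.7 in TS, 117 in CBM, and 109 in TBM), and hemoglobin-rich ones 5.94 to 14.3 CPM. So where *Gata1* and *Klf1* were highest, *Gata2* was near its lowest.

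On the myeloid side, *Spi1* was broad. Neutrophil-like barcodes, of which only TBM had at least 50, held 452 CPM (401 to 507) in TBM. Dendritic-like barcodes held 305 CPM (294 to 317) in CS, and monocyte-like barcodes 225 CPM in CS, 233 in CBM, and 316 in TBM, so the monocyte-like range reached the dendritic-like value. Basophil-like barcodes held 180.2 to 267 CPM, GMP-like barcodes 199 CPM in CS, 220.0 in TS, 175 in CBM, and 190.0 in TBM, and HSPC-like barcodes 147 CPM in CS, 149 in TS, 111 in CBM, and 129 in TBM. In both progenitor classes the spleen libraries lay over their BM partners. Hemoglobin-rich and early erythroid-like barcodes held 0.987 to 13.3 CPM and 5.05 to 5.67 CPM, against free RNA at 79.6 CPM in CS, 54.1 in TS, 141 in CBM, and 159 in TBM.

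*Cebpa*, which starts the granulocyte and monocyte path, was highest in basophil-like barcodes (199 CPM in CS, 198 in TS, 337 in CBM, and 225 in TBM), not in the progenitor classes. Mast-like (71.3 to 87.6 CPM), GMP-like (50.2 to 58.7 CPM), and monocyte-like barcodes (42.2 to 66.7 CPM) followed, and the last 2 ranges overlapped. HSPC-like barcodes held 32.4 CPM in CS, 31.7 in TS, 25.8 in CBM, and 37.3 in TBM. *Cebpe* and *Gfi1* were narrower. *Cebpe* stood at 373 CPM (326 to 423) in TBM in neutrophil-like barcodes and at 175 CPM (159 to 193) in CS, 79.0 (74.5 to 83.7) in TS, 172 (160.3 to 183) in CBM, and 89.2 (86.2 to 92.2) in TBM in GMP-like barcodes, where each control library lay above the tumor-bearing library of its tissue. Monocyte-like barcodes held 15.3 to 34.1 CPM, mast-like barcodes 15.9 to 26.9 CPM, and the other named classes less. Free RNA held *Cebpe* at 10.7 CPM in CS, 14.1 in TS, 34.4 in CBM, and 40.6 in TBM, over the monocyte-like and mast-like values of BM. *Gfi1* was highest in GMP-like barcodes, at 51.5 CPM in CS, 37.5 in TS, 67.6 in CBM, and 45.3 in TBM, ahead of neutrophil-like (20.6 CPM (10.97 to 35.2) in TBM), B-like (18.97 CPM in CBM and 14.1 in TBM), and HSPC-like barcodes (18.2 CPM in CS, 12.4 in TS, 14.7 in CBM, and 19.3 in TBM), which overlapped. Free RNA held *Gfi1* at 2.76 CPM in CS, 7.21 in TS, 20.2 in CBM, and 37.3 in TBM. The neutrophil-like and B-like values and the HSPC-like values of BM lay under it.

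*Irf8* was highest in dendritic-like barcodes, at 2049 CPM (2018 to 2079) in CS, and then in monocyte-like barcodes, at 589 CPM in CS, 713 in CBM, and 523 in TBM. B-like barcodes held 168 CPM in CBM and 209.5 in TBM. In HSPC-like barcodes it stood at 107 CPM (96.6 to 119) in CS, 40.0 (36.3 to 43.9) in TS, 89.3 (84.3 to 94.5) in CBM, and 48.6 (45.2 to 52.2) in TBM, with each control library above the tumor-bearing library of its tissue. GMP-like barcodes showed the other order, at 45.7 CPM (37.5 to 55.1) in CS, 88.3 (83.6 to 93.2) in TS, 48.7 (42.8 to 55.2) in CBM, and 118 (114 to 121) in TBM. Its level in free RNA differed widely between libraries (140.0 CPM in CS, 16.4 in TS, 260.5 in CBM, and 100.8 in TBM).

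17 further lineage factors and partners were counted in the same way, and each is compared between classes by its mean level over libraries. *Lmo2*, the bridge of the TAL1 complex, was highest in HSPC-like (479 CPM) and megakaryocyte-like barcodes (415 CPM), whose ranges overlapped, and stood at 323 CPM in hemoglobin-rich erythroid-like ones. *Gfi1b*, the relative of *Gfi1* in red cells and megakaryocytes, was highest in hemoglobin-rich erythroid-like barcodes at 121 CPM, before early erythroid-like ones at 80.9 CPM. *Nfe2*, a factor of megakaryocytes and red cells, was even, from 102 CPM in hemoglobin-rich erythroid-like to 130.2 CPM in Scin-high barcodes among its 6 highest classes. *Myb*, a factor of dividing progenitors, was highest in Scin-high barcodes (984 CPM), before B-like (775 CPM), mast-like (719 CPM), early erythroid-like (602 CPM), and GMP-like ones (574 CPM). *Cebpb*, the relative of *Cebpa* in mature myeloid cells, was highest in basophil-like (540.1 CPM), neutrophil-like (503 CPM), and monocyte-like barcodes (364 CPM). *Id2*, an inhibitor of E proteins, was highest in dendritic-like barcodes at 1164 CPM, before basophil-like ones at 237 CPM. *Runx1* was highest in mast-like (562 CPM) and basophil-like barcodes (495 CPM), whose ranges overlapped, and *Tcf3* in B-like ones (371 CPM).

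Ratios between libraries within a class were taken for TS over CS, TBM over CBM, CS over CBM, and TS over TBM, and called where a factor with at least 10 UMIs over both libraries differed 2-fold or more. Each library takes part in 2 of these comparisons, so they are not independent. Of 284 such ratios in 31 comparisons, 50 were called, 17 higher and 33 lower, and 15 of the 50 were of *Irf8*. Of all genes tested, 5.9% to 23.8% were called in the single comparisons. The share of the factors over all comparisons together, 17.6%, lay near the top of this range. Only basophil-like TS over CS (23.8%) lay above it, and T, NK or innate lymphoid-like TS over CS (17.3%) came next. The factor was under its own free RNA level in both libraries for 43 of the 50, and 41 of these 43 had the sign of the free RNA ratio, as did 98 of all 136 ratios under free RNA and 72 of the 148 others; how much free RNA added to them was not tested. Where a factor reached its free RNA level in at least 1 library, 7 of 148 ratios were called (4.73%), with a median absolute log2 ratio of 0.25. Where it did not, 43 of 136 were called (31.6%), with a median of 0.66. These groups also differ in level, and few UMIs pass 2-fold more often by counting error, so the shares are descriptions. The 7 calls at or over free RNA were lower *Irf8* in HSPC-like TS, higher *Irf8* in GMP-like TBM, lower *Cebpe* in GMP-like TS, lower *Gata2* in Scin-high CS, lower *Klf1* in Scin-high TBM, and, in mast-like CS, higher *Gfi1* and lower *Zfpm1*.

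**Figure D2:**
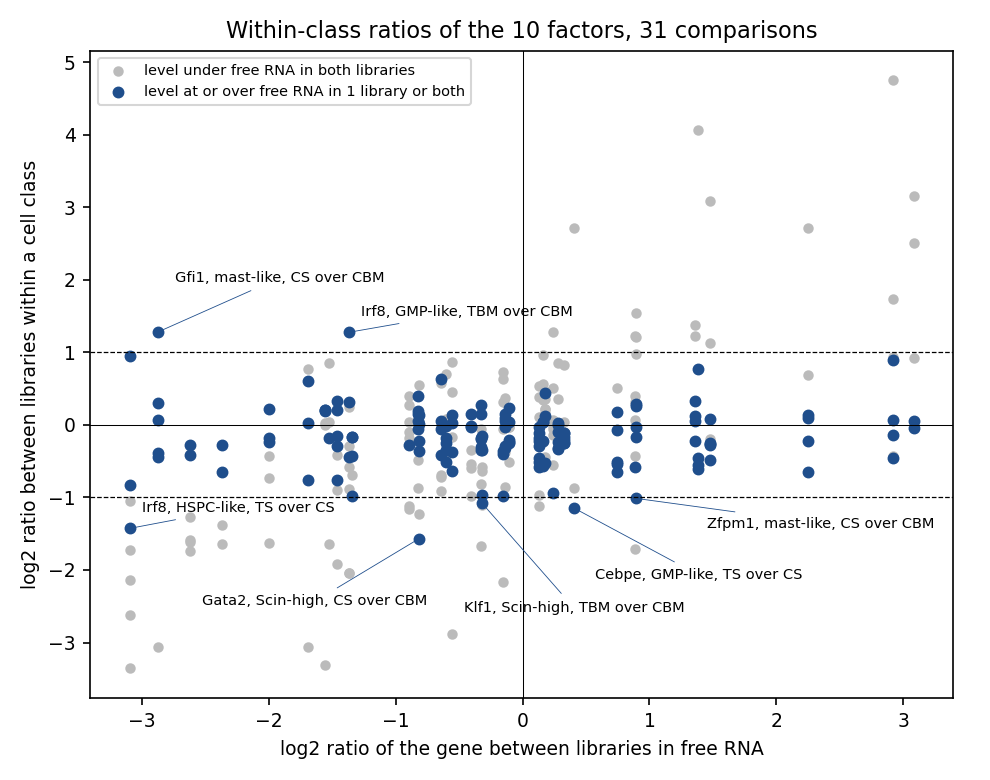
Log2 ratio of each factor between 2 libraries within a class (vertical axis) against the log2 ratio of the same factor in free RNA (horizontal axis), 1 point for each factor and comparison, with dashed lines at 2-fold. Blue points, at or over free RNA in 1 library or both, pass a dashed line in 7 cases, which are labeled, and gray points in 43.

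In HSPC-like barcodes (150 in CS, 691 in TS, 820 in CBM, and 931 in TBM), only *Irf8* passed 2-fold, and only in TS over CS. Those past 2-fold were 1 of 10 factors in TS over CS (8.37% of all genes tested), 0 of 10 factors in TBM over CBM (7.36% of all genes tested), 0 of 10 factors in CS over CBM (8.16% of all genes tested), and 0 of 10 factors in TS over TBM (7.69% of all genes tested). *Irf8*, at the levels given above, had a log2 ratio of -1.43 (-1.63 to -1.22) in TS over CS and -0.88 (-1.01 to -0.74) in TBM over CBM, so both tumor-bearing libraries were lower, and CS over CBM was 0.27 (0.09 to 0.44). It lay under its free RNA level in CS, CBM, and TBM and over it in TS, and its log2 ratio in free RNA was -3.10 in TS over CS and -1.37 in TBM over CBM, the same way; how much free RNA added was not tested. The libraries also fell into the 3 HSPC-like clusters unequally, with 69, 42, 613, and 627 barcodes of CS, TS, CBM, and TBM in cluster 0, 47, 374, 207, and 297 in cluster 4, and 34, 275, 0, and 7 in cluster 19, so that the class ratios compare different mixtures. Within cluster 4, TS over CS was -1.40 (-1.65 to -1.15), from 49.4 against 130.5 CPM, and TBM over CBM -0.84 (-1.01 to -0.66). Within cluster 0 they were -3.49 (-5.38 to -2.10), from 10.3 against 115 CPM, and -1.14 (-1.37 to -0.92). Within cluster 19, TS over CS was -0.61 (-1.47 to 0.33), from 17.9 against 27.2 CPM, and its interval held 0. The 9 dendritic markers summed to 151 CPM in CS, 62.0 in TS, 107 in CBM, and 54.1 in TBM, which was lower in both tumor-bearing libraries as *Irf8* was, with 1 or 2 of them at 0, and the 7 monocyte markers to 157 CPM in CS, 153 in TS, 123 in CBM, and 146 in TBM, which was higher in TBM than CBM and close in TS and CS. The 7 macrophage markers, of which 1 was at 0 in TBM, summed to 57.5 CPM in CS, 6.504 in TS, 24.3 in CBM, and 4.15 in TBM, also lower in both tumor-bearing libraries, and the 10 B markers, of which 4 were at 0 in CS, 2 in TS, and 1 in TBM, to 86.6 CPM in CS, 78.8 in TS, 292 in CBM, and 146 in TBM, lower in TBM than in CBM. B-like barcodes held *Irf8* at the levels given above, and the part of these markers in the result was not tested.

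The other factors stayed under 2-fold in the class. *Cebpe*, under free RNA in each library, was -0.87 (-1.52 to -0.20) in TS over CS. *Cebpa* was 0.53 (0.33 to 0.73) in TBM over CBM and -0.03 (-0.35 to 0.30) in TS over CS, and in TBM over CBM it was 1.02 (0.71 to 1.35) within cluster 4 and 0.14 (-0.12 to 0.41) within cluster 0, so that it passed 2-fold in 1 of these clusters, as it did in CS over CBM within cluster 4 (1.02, 0.56 to 1.48). The class level of *Cebpa* lay under free RNA in both CBM and TBM, and its log2 ratio in free RNA was 0.13 in TBM over CBM. From CBM to TBM the 6 GMP markers went from 2384 to 3666 CPM, the 9 neutrophil markers from 22.4 to 118 CPM, the 6 basophil markers from 133 to 215 CPM, and the 6 mast markers, of which 3 were at 0 in both, from 22.9 to 72.7 CPM, higher in TBM as *Cebpa* was and as *Cebpd* was below; their part was not tested. *Spi1* was 0.40 (0.25 to 0.55) in CS over CBM and 0.21 (0.11 to 0.31) in TS over TBM, higher in spleen each time. *Gata2* lay within -0.17 and 0.23 in all 4 comparisons. *Gata1* and *Klf1* lay under free RNA in each library, and *Gata1* in TS over TBM was 0.68 (0.23 to 1.14) in the class and 1.14 (0.52 to 1.78) within cluster 4, and in TS over CS 0.96 (0.14 to 1.89) and 1.84 (0.43 to 3.76). The 8 early erythroid markers, none at 0, summed to 110.2 CPM in CS, 128 in TS, 49.7 in CBM, and 36.1 in TBM, higher in TS than in TBM and CS as *Gata1* was; their part was not tested. The median of the 10 log2 ratios was -0.08 in TS over CS, 0.12 in TBM over CBM, 0.14 in CS over CBM, and -0.06 in TS over TBM, and that of all genes -0.05 in TS over CS, -0.02 in TBM over CBM, 0.01 in CS over CBM, and -0.04 in TS over TBM. Of the 17 further factors those past 2-fold were 0 higher and 2 lower of 15 in TS over CS, 1 higher and 0 lower of 15 in TBM over CBM, 0 higher and 0 lower of 15 in CS over CBM, and 0 higher and 1 lower of 16 in TS over TBM. They were *Gfi1b* (-1.01, -1.45 to -0.55) and *Klf4* (-2.25, -2.67 to -1.83), a factor of monocytes, in TS over CS, *Cebpd* (1.06, 0.83 to 1.31) in TBM over CBM, and *Klf4* (-2.20, -2.55 to -1.86) in TS over TBM.

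GMP-like barcodes (53 in CS, 422 in TS, 217 in CBM, and 1023 in TBM) showed opposite moves of *Cebpe* and *Irf8* with the tumor. Past 2-fold were 2 of 10 factors in TS over CS (11.7% of all genes tested), 2 of 10 factors in TBM over CBM (11.5% of all genes tested), 3 of 10 factors in CS over CBM (7.28% of all genes tested), and 3 of 10 factors in TS over TBM (7.22% of all genes tested). *Cebpe* had a log2 ratio of -1.15 (-1.31 to -0.98) in TS over CS and -0.94 (-1.05 to -0.83) in TBM over CBM, and *Gfi1* of -0.46 (-0.74 to -0.16) and -0.58 (-0.75 to -0.40). *Irf8* had 0.95 (0.67 to 1.25) and 1.28 (1.09 to 1.47), the other way in both tissues. With each barcode classed by its own markers, *Irf8* in TBM over CBM was -1.82 and *Cebpe* in TS over CS -0.37, and with TMM scaling the latter was -0.89, so that these calls rest on the class and, for *Cebpe*, on the scaling. *Spi1* (0.14 (0.00 to 0.28) and 0.12 (0.02 to 0.22)) and *Cebpa* (0.15 (-0.12 to 0.43) and -0.22 (-0.40 to -0.04)) differed far less. Other markers moved with the tumor in the class. The 11 HSPC markers summed to 439 CPM in CS, 949 in TS, 252 in CBM, and 598 in TBM, higher in both tumor-bearing libraries, and the 6 GMP markers to 27045 CPM in CS, 20449.5 in TS, 30750.5 in CBM, and 24677 in TBM, lower in both. The sum of the HSPC markers was not highest in HSPC-like barcodes (3111 to 4465 CPM). Basophil-like barcodes held 4748 to 6234 CPM and mast-like ones 4282 to 5820 CPM, so this sum does not stand for HSPC-like cells alone. The 9 neutrophil markers summed to 891 CPM in CS, 1030.0 in TS, 1081 in CBM, and 2068 in TBM, the 7 monocyte markers to 1193 CPM in CS, 537 in TS, 1501 in CBM, and 1354 in TBM, and the 9 dendritic markers, of which 2 to 5 were at 0, to 58.7 CPM in CS, 23.7 in TS, 30.9 in CBM, and 23.99 in TBM; their part was not tested. The other calls in this class were of *Gata1*, *Klf1*, and *Zfpm1*, all under free RNA, of which 6 were higher in spleen than in BM and 2 lower with the tumor. The 8 early erythroid markers summed to 161 CPM in CS, 212 in TS, 19.8 in CBM, and 19.7 in TBM, also higher in spleen, and their part was not tested; the median gene of CS over CBM stood at 0.11.

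**Figure D3:**
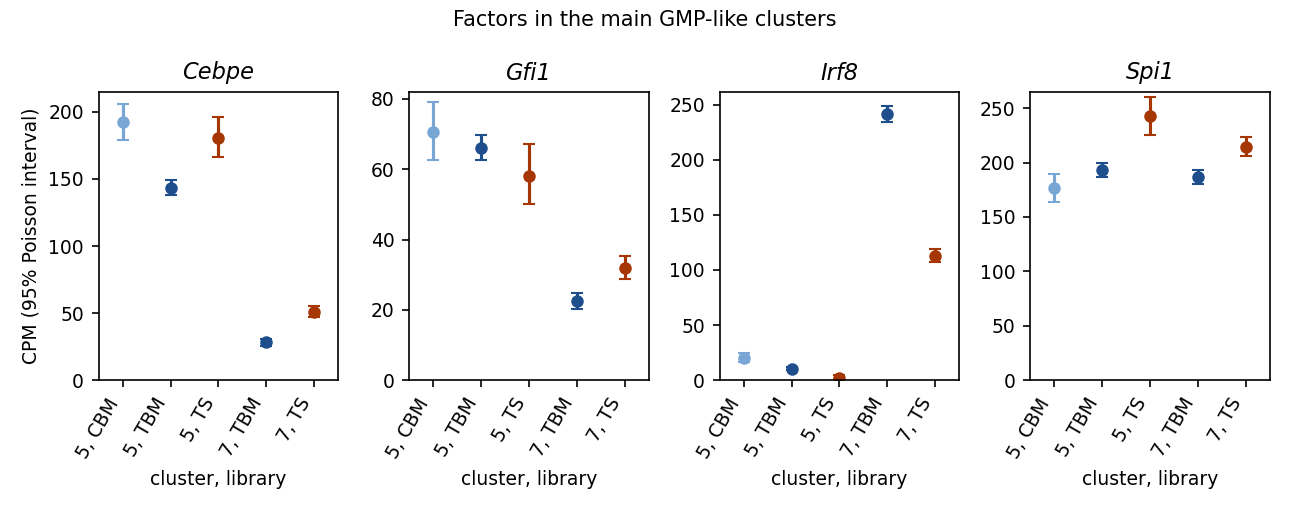
CPM with 95% Poisson intervals of *Cebpe*, *Gfi1*, *Irf8*, and *Spi1* in the 2 largest GMP-like clusters, numbered 5 and 7, in each library with at least 50 barcodes. *Cebpe* and *Gfi1* are high in cluster 5 and *Irf8* in cluster 7 for every library shown, and *Spi1* is similar in both.

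These class values combined clusters of different makeup. Cluster 5 held 42 barcodes of CS, 105 of TS, 159 of CBM, and 540 of TBM, and cluster 7 held 11, 315, 12, and 403 in the same order, so that cluster 7 was nearly limited to the tumor-bearing libraries. Cluster 26 of this class held 0, 2, 46, and 80 in that order. It adds to the class values of CBM and TBM, and its levels are not given here. In cluster 5 *Cebpe* stood at 192 (179 to 206) in CBM, 143 (138 to 149) in TBM, and 181 (166 to 196) in TS. In cluster 7 it stood at 28.3 (25.8 to 30.9) in TBM and 50.9 (46.9 to 55.2) in TS. Within either cluster the libraries were closer to each other in fold than the clusters were within a library. *Irf8* was at 20.2 in CBM, 10.4 in TBM, and 2.49 in TS in cluster 5 and at 242 and 113 in cluster 7. In cluster 5 alone, TBM over CBM for *Irf8* turned to -0.96, while TBM stood at 242 in cluster 7. *Gfi1* followed *Cebpe*, at 70.5, 66.1, and 58.1 in cluster 5 and 22.5 and 31.9 in cluster 7. Of the further factors in the class, 1 higher and 1 lower of 15 in TS over CS, 1 higher and 1 lower of 15 in TBM over CBM, 1 higher and 0 lower of 15 in CS over CBM, and 1 higher and 0 lower of 15 in TS over TBM passed 2-fold. *Gfi1b*, at most 7.12 CPM, and *Klf4* (1.92 (1.501 to 2.38) in TBM over CBM) and *Id2* (1.16 (0.28 to 2.19) in TS over CS) were those factors. *Gfi1b* was -1.34 in TS over CS, -1.77 in TBM over CBM, 2.58 in CS over CBM, and 3.02 in TS over TBM.

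Monocyte-like barcodes could be compared for TBM over CBM, with 2 of 10 factors past 2-fold against 12% of all genes, and for CS over CBM, with 1 of 10 against 8.93%. The 3 calls were of *Zfpm1* (-1.67, -2.55 to -0.89) and *Gfi1* (-1.72, -2.36 to -1.13) in the first and *Gata1* (1.12, -0.19 to 2.31, from 9 and 21 UMIs) in the second, all under free RNA. *Irf8* was lower in TBM (-0.45, -0.50 to -0.40) and *Spi1* higher (0.44, 0.37 to 0.51), neither past 2-fold. The 9 neutrophil markers summed to 92.9 CPM in CBM, with 1 at 0, and 3713 CPM in TBM, with none at 0, and the 6 GMP markers to 13063 and 7932 CPM. They moved with these ratios, and neutrophil-like barcodes held *Spi1* at 452 CPM and *Irf8* at 19.02 CPM; their part, also in the further factors below, was not tested. Of the CBM barcodes 423 lay in a cluster that held 35 of TBM, and 306 in one that held 226. In the latter cluster *Irf8* was 752 in CBM and 496 in TBM, and *Spi1* 318 and 331, so that the gap in *Irf8* held within it while that in *Spi1* nearly closed. Among the further factors, 1 of 17 was higher and 1 lower past 2-fold in each comparison, namely *Myb* (-1.34, -1.44 to -1.25) and *Id2* (1.91, 1.73 to 2.09) in TBM over CBM and *Irf4* (1.47, 0.69 to 2.22) and *Klf4* (-1.15, -1.29 to -1.02) in CS over CBM.

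In Scin-high barcodes (861 in CS, 495 in TS, 291 in CBM, and 154 in TBM), *Gata2* differed by tissue and *Klf1* with the tumor. Past 2-fold were 1 of 8 factors in TS over CS (12.3% of all genes tested), 2 of 9 factors in TBM over CBM (9.16% of all genes tested), 2 of 8 factors in CS over CBM (12.8% of all genes tested), and 2 of 8 factors in TS over TBM (9.52% of all genes tested). *Gata2* was lower in CS than CBM (-1.57, -1.64 to -1.49) and in TS than TBM (-0.98, -1.10 to -0.87, just short of 2-fold), and higher in TS than CS (0.63, 0.54 to 0.71). *Klf1* was lower with the tumor in BM (-1.08, -1.45 to -0.73) and in spleen (-0.98, -1.18 to -0.79), where 2-fold was narrowly missed. *Gata1* followed *Klf1* more weakly (-0.57 (-0.76 to -0.38) in TS over CS and -0.18 (-0.49 to 0.12) in TBM over CBM), and *Zfpm1* did not differ by more than 0.29 in any comparison. The clusters of this class separated CS, TS, and BM from each other, so the tissue comparisons and TS over CS are mostly between clusters. Where 2 libraries shared a cluster with at least 20 barcodes each, the ratios were smaller for *Gata2* and *Klf1* of spleen. *Gata2* in CS over CBM was -0.87 (-1.07 to -0.67) within cluster 6 (801 and 27 barcodes) and -0.66 (-0.87 to -0.46) within cluster 16 (38 and 263), neither past 2-fold. In TS over CS within cluster 14 (476 and 22 barcodes) *Klf1* was -0.60 (-1.22 to 0.09), *Gata1* -0.37 (-1.01 to 0.35), and *Gata2* -0.24 (-0.52 to 0.05), and the 3 intervals held 0. In BM, 129 TBM and 263 CBM barcodes shared cluster 16, in which *Klf1* stood at 50.3 and 108 CPM, a ratio of -1.11 (-1.52 to -0.72). The 8 early erythroid markers summed to 2310.4 CPM in CS, 1107 in TS, 1583 in CBM, and 913 in TBM, lower in both tumor-bearing libraries as *Klf1* was, and the 11 HSPC markers to 1025 CPM in CS, 1813 in TS, 2045 in CBM, and 2766 in TBM, higher in them; their part was not tested. The 5 other calls were of *Irf8*, *Cebpa*, or *Cebpe*, under free RNA. The 7 monocyte markers, none at 0, summed to 8.12 CPM in CS, 12.8 in TS, 64.2 in CBM, and 56.3 in TBM, higher in BM as *Irf8* and *Cebpa* were, the 9 neutrophil markers to 2.39 CPM in CS, 20.9 in TS, 22.8 in CBM, and 139 in TBM, higher in TBM than CBM as *Cebpe* was, and the 9 dendritic markers to 76.6 CPM in CS, 35.1 in TS, 34.9 in CBM, and 26.8 in TBM; their part was not tested. Of the further factors, 0 higher and 1 lower of 16 in TS over CS, 2 higher and 0 lower of 15 in TBM over CBM, 0 higher and 0 lower of 16 in CS over CBM, and 0 higher and 2 lower of 15 in TS over TBM passed 2-fold. They were *Lyl1*, a relative of *Tal1* (-1.12 (-1.37 to -0.89) in TS over CS), *Cebpd* (1.94 in TBM over CBM and -1.56 in TS over TBM), and *Klf4* (1.23 and -1.02 in the same order).

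Early erythroid-like barcodes, 824 in CS and 2725 in TS, differed by less than 2-fold in the erythroid-side factors, most in *Gata2*. In TS over CS, 3 of 10 factors were past 2-fold against 8.85% of all genes. They were *Irf8* (-2.14, -2.50 to -1.79), *Cebpe* (2.71, 1.26 to 4.64), and *Gfi1* (4.06, 1.48 to 9.41), each far under free RNA. *Gata1* had -0.22 (-0.27 to -0.17), *Klf1* -0.40 (-0.44 to -0.36), *Tal1* -0.11 (-0.16 to -0.06), and *Zfpm1* -0.29 (-0.32 to -0.25), each lower in TS. *Gata2* had -0.92 (-1.01 to -0.83), and the 11 HSPC markers, none at 0, summed to 151 CPM in CS and 102 in TS, also lower in TS; their part was not tested. Within the cluster of 96 CS and 1002 TS barcodes *Gata2* was 18.005 CPM in CS and 17.7 in TS, and *Klf1* was 204 and 138, a ratio of -0.57 (-0.66 to -0.47). Within the cluster of 25 CS and 672 TS barcodes, in contrast, *Gata2* was -1.17 (-1.51 to -0.80). *Id2* (-1.08, -1.45 to -0.71) and *Batf3* (-2.20, -3.43 to -1.08), a factor of dendritic cells, were the 2 of 16 further factors past 2-fold. The 9 dendritic markers summed to 57.3 CPM in CS, with 1 at 0, and 26.6 CPM in TS, with 2 at 0, lower in TS as *Irf8*, *Id2*, and *Batf3* were, and the 9 neutrophil markers to 1.00 and 6.403 CPM, with 4 and 2 at 0, higher in TS as *Cebpe* and *Gfi1* were; their part was not tested.

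Hemoglobin-rich erythroid-like barcodes (65 in CS, 61 in TS, 109 in CBM, and 150 in TBM) had 2 of 7 factors in TS over CS (14% of all genes tested), 1 of 9 factors in TBM over CBM (8.79% of all genes tested), 2 of 8 factors in CS over CBM (11.5% of all genes tested), and 2 of 8 factors in TS over TBM (14.8% of all genes tested) past 2-fold. In TS over CS and TS over TBM the median gene stood at 0.21 and 0.23. *Klf1* was -0.36 (-0.57 to -0.15) in TS over CS and -0.34 (-0.50 to -0.18) in TBM over CBM, lower with the tumor each time. *Gata1* differed by at most 0.13 in the 4 comparisons. The 9 hemoglobin-rich erythroid markers summed to 243686 CPM in CS, 130669 in TS, 262354 in CBM, and 251884 in TBM, lowest in TS, and as these factors vary with the share of hemoglobin (below), the part of this difference was not tested. All 7 calls were of *Gata2*, *Spi1*, *Cebpa*, or *Irf8* under free RNA. Among them, *Irf8* had 0 UMIs in TS against 30.3 CPM in CS and 7.14 in TBM. With TS set at 3 counts this was 10.2-fold and 2.41-fold lower, values that leave out counting error and are not limits. The first stayed past 2-fold in 6 of 7 alternative settings and the second in 4 of 6. *Irf8* in free RNA was also lower in TS. The 9 dendritic markers, of which 3 to 6 were at 0, summed to 393 CPM in CS, 12.8 in TS, 18.9 in CBM, and 5.80 in TBM, lower in both tumor-bearing libraries as *Irf8* was, the 7 monocyte markers to 29.03 CPM in CS, 9.87 in TS, 127 in CBM, and 82.1 in TBM, and the 6 GMP markers to 449 CPM in CS, 452 in TS, 1456 in CBM, and 1415 in TBM, the last 2 higher in BM; their part in these calls and the following was not tested. Of the further factors, 1 higher and 2 lower of 13 in TS over CS, 0 higher and 1 lower of 14 in TBM over CBM, 1 higher and 4 lower of 15 in CS over CBM, and 0 higher and 2 lower of 14 in TS over TBM passed 2-fold. *Cbfa2t3*, a corepressor of the TAL1 complex, was -1.37 in TS over CS and -1.37 in TBM over CBM. *Id2* (-4.37) and *Tcf4* (1.27) in TS over CS, *Id2* (3.20), *Fli1* (-2.86), *Cebpb* (-1.04), *Cebpd* (-1.43), and *Klf4* (-1.34) in CS over CBM, and *Fli1* (-1.73) and *Cebpb* (-1.41) in TS over TBM were also past 2-fold.

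In megakaryocyte-like barcodes (209 in CS, 377 in TS, 260 in CBM, and 505 in TBM), 1 of 8 factors in TS over CS (8% of all genes tested), 0 of 10 factors in TBM over CBM (7.48% of all genes tested), 2 of 10 factors in CS over CBM (5.9% of all genes tested), and 4 of 10 factors in TS over TBM (9.63% of all genes tested) passed 2-fold. The factors over free RNA there differed by less: *Gata2* was -0.42 (-0.53 to -0.31) in TS over CS and -0.21 (-0.30 to -0.12) in TBM over CBM, and *Zfpm1* -0.51 (-0.60 to -0.41) and -0.30 (-0.38 to -0.23), both lower with the tumor in each tissue. The 11 HSPC markers, none at 0, summed to 1694 CPM in CS, 1932 in TS, 1341 in CBM, and 2079.8 in TBM, higher with the tumor in each tissue. HSPC-like barcodes held less of both factors. Basophil-like and mast-like barcodes, which also held these markers, held more *Gata2* and less *Zfpm1*. The part of these markers was not tested. *Klf1* was higher in spleen (0.89 (0.43 to 1.37) in CS over CBM and 2.50 (2.06 to 2.96) in TS over TBM), and the 8 early erythroid markers summed to 293 CPM in CS, 749 in TS, 183 in CBM, and 152 in TBM, while *Klf1* in free RNA was 74.8 CPM in CS, 67.1 in TS, 9.89 in CBM, and 7.93 in TBM; their part was not tested. The other 6 calls were of *Cebpe*, *Irf8*, or *Gfi1*, under free RNA. The 9 neutrophil markers, of which 1 to 6 were at 0, summed to 1.47 CPM in CS, 13.7 in TS, 23.9 in CBM, and 77.1 in TBM, the 7 monocyte markers to 14.7 CPM in CS, 25.7 in TS, 57.9 in CBM, and 69.2 in TBM, both higher in BM as *Cebpe* and *Gfi1* were, and the 9 dendritic markers to 78.9 CPM in CS, 44.4 in TS, 40.0 in CBM, and 26.8 in TBM; their part was not tested. Of the further factors, 0 higher and 1 lower of 15 in TS over CS, 0 higher and 0 lower of 15 in TBM over CBM, 0 higher and 1 lower of 15 in CS over CBM, and 0 higher and 2 lower of 15 in TS over TBM passed 2-fold. These were *Klf4* (-1.45 in TS over CS and -1.65 in TS over TBM) and *Cebpd* (-1.15 in CS over CBM and -1.52 in TS over TBM).

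Basophil-like barcodes (299 in CS, 66 in TS, 456 in CBM, and 458 in TBM) had 2 of 9 factors in TS over CS (23.8% of all genes tested), 1 of 9 factors in TBM over CBM (15.9% of all genes tested), 3 of 9 factors in CS over CBM (9.27% of all genes tested), and 3 of 9 factors in TS over TBM (16.9% of all genes tested) past 2-fold. *Gata2* stayed within -0.36 and -0.05 in the 4 comparisons. *Cebpa* was lower in TBM (-0.58, -0.73 to -0.44) and CS (-0.76, -0.95 to -0.58) than in CBM, and *Spi1* lower in TBM (-0.52, -0.68 to -0.36). In the cluster that CBM and TBM shared most, *Spi1* was 269.8 and 241, and in the cluster mostly of TBM 150.1. The 7 monocyte markers summed to 292 CPM in CS, 275 in TS, 598 in CBM, and 346 in TBM, highest in CBM as *Cebpa* was, the 6 GMP markers to 1157 CPM in CS, 4461 in TS, 2077 in CBM, and 3520.5 in TBM, and the 9 neutrophil markers, of which 5 were at 0 in TS and none in TBM, to 8.41 CPM in CS, 124 in TS, 93.5 in CBM, and 445 in TBM. The 9 calls were of *Irf8*, *Klf1*, *Zfpm1*, and *Gfi1*, under free RNA in both libraries. The 8 early erythroid markers summed to 419 CPM in CS, 275 in TS, 87.6 in CBM, and 61.4 in TBM, higher in spleen as *Zfpm1* was, and the 9 dendritic markers, of which 3 to 7 were at 0, to 126 CPM in CS, 30.2 in TS, 41.7 in CBM, and 31.5 in TBM. The part of these markers was not tested. Of the further factors, 0 higher and 4 lower of 15 in TS over CS, 0 higher and 0 lower of 15 in TBM over CBM, 0 higher and 1 lower of 15 in CS over CBM, and 0 higher and 1 lower of 15 in TS over TBM passed 2-fold. They were *Ldb1* (-1.87), *Gfi1b* (-1.46), *Cebpd* (-1.30), and *Id2* (-1.70) in TS over CS, *Klf4* (-1.002) in CS over CBM, and *Ldb1* (-1.11) in TS over TBM.

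Mast-like, B-like, and T, NK or innate lymphoid-like barcodes could be compared in 4 ways. Past 2-fold were 1 of 10 factors in TBM over CBM (9.3% of all genes tested) and 2 of 10 in CS over CBM (10.6%) in mast-like barcodes, 0 of 6 in TBM over CBM (14.8%) in B-like ones, and 0 of 9 in TS over CS (17.3%) in the last class. *Gfi1* was 1.22 (-0.75 to 3.44) in TBM over CBM and 1.28 (-0.56 to 3.43) in CS over CBM of mast-like barcodes, from 7, 9, and 4 UMIs in TBM, CS, and CBM, and both intervals held 0. *Zfpm1* was -1.01 (-1.53 to -0.51) in CS over CBM of mast-like barcodes, where CBM lay over free RNA and CS under it. With each barcode classed by its own markers, the CS over CBM values turned to -1.25 for *Gfi1* and 1.40 for *Zfpm1*. In B-like barcodes *Irf8* was 0.32 (0.03 to 0.60) and *Zfpm1* 0.28 (-0.05 to 0.60). Of the further factors, 0 of 15 passed 2-fold in TBM over CBM and 2 of 15, both higher, in CS over CBM of mast-like barcodes, 1 higher and 1 lower of 15 in B-like ones, and 6 of 17, all lower, in T, NK or innate lymphoid-like ones. They were *Cebpb* (1.10) and *Id2* (2.36) in mast-like CS over CBM, *Nfe2* (-1.18) and *Id2* (1.40) in B-like TBM over CBM, and *Cbfa2t3* (-1.09), *Cebpd* (-1.73), *Irf4* (-3.59), *Klf4* (-2.21), *Id2* (-2.24), and *Batf3* (-5.76) in T, NK or innate lymphoid-like TS over CS. In the last class the 9 dendritic markers summed to 5616 against 308 CPM and the 7 monocyte markers to 1082 against 279 CPM in CS and TS, both lower in TS as these 6 factors were, with 1 and 3 and with 0 and 1 at 0. In mast-like barcodes the dendritic markers summed to 103 in CS and 60.7 CPM in CBM, and in B-like ones to 321 in TBM and 212 CPM in CBM, where the monocyte markers stood at 478 and 213 CPM. The part of these markers was not tested.

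Progenitors are often pictured as holding erythroid and myeloid factors at the same time before 1 side prevails, so co-detection was read in barcodes with at least 1 UMI of *Kit*, the stem cell factor receptor. After each barcode was thinned to 2000 UMIs, 2667 such barcodes remained in CS, 4573 in TS, 2129 in CBM, and 2705 in TBM, and 12, 7, 8, and 18 were too shallow. The pools differed. HSPC-like barcodes made up 5.36% in CS, 13.3% in TS, 35.9% in CBM, and 31.5% in TBM, and early erythroid-like ones 30.6% in CS, 58.1% in TS, 1.93% in CBM, and 1.29% in TBM. Scin-high ones made up 31.8% in CS, 9.75% in TS, 13.2% in CBM, and 5.43% in TBM. Median depths before thinning lay between 17593 and 31020 UMIs. *Gata1* was seen in 10.5% (9.32% to 11.7%) in CS, 10.6% (9.73% to 11.5%) in TS, 5.21% (4.31% to 6.24%) in CBM, and 3.07% (2.45% to 3.79%) in TBM of the Kit-positive barcodes, and *Klf1* in 14.5% in CS, 13.995% in TS, 3.95% in CBM, and 1.81% in TBM. *Spi1* was seen in 12.2% (10.97% to 13.5%) in CS, 8.86% (8.05% to 9.72%) in TS, 19.1% (17.4% to 20.8%) in CBM, and 22.3% (20.7% to 23.9%) in TBM, *Gata2* in 21.1% in CS, 12.5% in TS, 26.1% in CBM, and 22.6% in TBM, and *Cebpa* in 2.36% in CS, 1.99% in TS, 7.56% in CBM, and 7.02% in TBM. For *Spi1* and *Gata1*, classes that should lack them gave the background: *Spi1* was seen in 1.54% in CS, 0% in TS, 4.59% in CBM, and 0.667% in TBM of hemoglobin-rich erythroid-like barcodes, and *Gata1* in 0.820% in CBM and 0.588% in TBM of B-like and 1.89% in TBM of neutrophil-like barcodes. No background share is given here for *Klf1*, *Gata2*, and *Cebpa*.

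*Gata1* and *Spi1* were seen together in few barcodes, 9 (0.337%) in CS, 13 (0.284%) in TS, 7 (0.329%) in CBM, and 7 (0.259%) in TBM. Divided by the number expected from their separate shares, this was 0.26 (0.12 to 0.50) in CS, 0.30 (0.16 to 0.52) in TS, 0.33 (0.13 to 0.68) in CBM, and 0.38 (0.15 to 0.78) in TBM, under 1 in each library. *Klf1* with *Spi1* gave 22 barcodes in CS, 11 in TS, 5 in CBM, and 0 in TBM, or 0.47 (0.29 to 0.71) in CS, 0.19 (0.10 to 0.35) in TS, 0.31 (0.10 to 0.73) in CBM, and 0.00 (0.00 to 0.34) in TBM over the expected number. When the expectation was built within each class and summed, *Gata1* with *Spi1* came to 0.73 (0.34 to 1.39) in CS, 0.91 (0.48 to 1.55) in TS, 0.66 (0.27 to 1.36) in CBM, and 0.86 (0.35 to 1.77) in TBM, and the intervals held 1. *Klf1* with *Spi1* within classes came to 1.29 (0.81 to 1.95) in CS, 0.78 (0.39 to 1.39) in TS, 0.64 (0.21 to 1.49) in CBM, and 0.00 (0.00 to 0.93) in TBM, where only the interval of TBM, with no barcode of both, lay under 1. For *Gata1* with *Spi1* a deficit within classes was not detectable at this depth. The values came closer to 1 with depth, as thinning to 5000 UMIs gave 0.43 in CS, 0.36 in TS, 0.46 in CBM, and 0.51 in TBM, and no thinning 0.72 in CS, 0.54 in TS, 0.68 in CBM, and 0.70 in TBM. Of the co-detecting barcodes, 5 of 9 in CS, 4 of 13 in TS, 2 of 7 in CBM, and 1 of 7 in TBM were Scin-high, and 1, 2, 1, and 0 were HSPC-like. These few barcodes were not set against the background shares given above. How many of them came from free RNA or from droplets with more than 1 cell was not tested.

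*Gata2* overlapped with *Spi1* far more often, with 52 barcodes in CS, 63 in TS, 70 in CBM, and 101 in TBM. Observed over expected was 0.76 (0.57 to 0.99) in CS, 1.24 (0.95 to 1.59) in TS, 0.66 (0.51 to 0.83) in CBM, and 0.74 (0.60 to 0.90) in TBM, and within classes 1.05 (0.79 to 1.38) in CS, 1.01 (0.78 to 1.29) in TS, 0.99 (0.77 to 1.25) in CBM, and 1.03 (0.84 to 1.25) in TBM. HSPC-like barcodes made up 4 of the 52 in CS, where 24 were Scin-high, 30 of the 63 in TS, 28 of the 70 in CBM, and 48 of those in TBM. Within the HSPC-like barcodes alone, the 4 intervals of *Gata2* with *Spi1* held 1, at 0.64 (0.17 to 1.64) in CS, 1.00 (0.68 to 1.43) in TS, 0.96 (0.64 to 1.39) in CBM, and 0.95 (0.70 to 1.26) in TBM. *Gata2* with *Cebpa* was over 1 in the spleen libraries, at 1.73 (1.09 to 2.59) in CS, 1.75 (1.07 to 2.71) in TS, 0.78 (0.54 to 1.10) in CBM, and 0.84 (0.59 to 1.16) in TBM, and near 1 within classes, at 1.07 (0.68 to 1.60) in CS, 1.12 (0.68 to 1.73) in TS, 0.83 (0.57 to 1.17) in CBM, and 1.03 (0.72 to 1.42) in TBM.

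*Klf1* was rarely seen with the factors of granulocyte maturation, but few such barcodes were expected. *Klf1* with *Cebpe* was seen in 1 barcode of TBM and in none of the other libraries, and *Klf1* with *Gfi1* in 0 of the Kit-positive barcodes of each library, where 3.48, 7.42, 2.88, and 2.45 were expected. The upper limits of observed over expected for *Klf1* with *Gfi1* over all Kit-positive barcodes were 1.06 in CS, 0.50 in TS, 1.28 in CBM, and 1.51 in TBM. Only that of TS lay under 1, and whether it does so within classes was not tested. Over all Kit-positive barcodes, *Irf8* gave low values with each erythroid-side factor, from 0.00 to 0.57 over the 20 values. *Tal1* with *Spi1* was closer to 1, at 0.50 in CS, 0.75 in TS, 0.79 in CBM, and 0.78 in TBM. Any erythroid-side with any myeloid-side factor was seen in 6.41% in CS, 4.42% in TS, 10.7% in CBM, and 9.35% in TBM of the Kit-positive barcodes, or 0.46 in CS, 0.60 in TS, 0.58 in CBM, and 0.62 in TBM over expected. For the pairs of this paragraph no expectation was built within classes. The part of the mixture of classes in these values was therefore not tested.

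**Figure D4:**
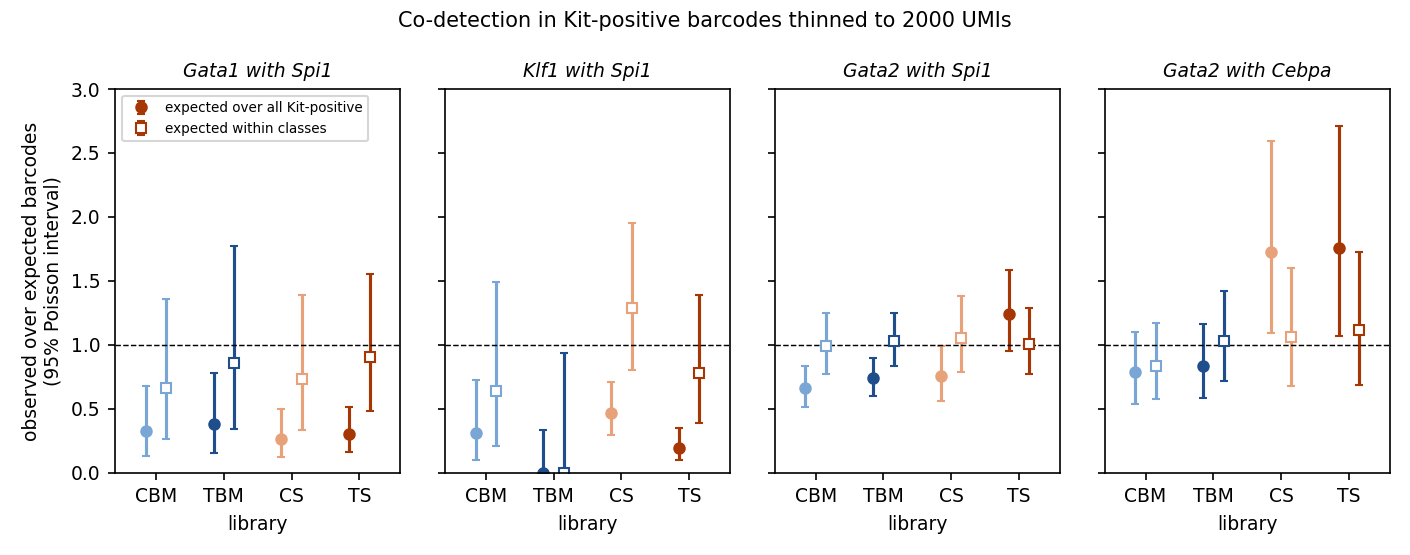
Barcodes with both factors over the number expected from their separate shares (vertical axis, 95% Poisson intervals) for pairs of an erythroid-side with a myeloid-side factor in each library, over all Kit-positive barcodes and with the expectation built within classes. *Gata1* with *Spi1* lies at 0.26 to 0.38 over all barcodes, and its within-class intervals include 1 (dashed line).

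Along erythroid maturation, the 4019 early and hemoglobin-rich erythroid-like barcodes of all libraries were split by the share of hemoglobin among their UMIs: under 1% (3636 barcodes), 1% to 10% (89), 10% to 50% (202), and 50% or more (92). These are ranges of a share and not cell types, and 9, 19, and 82 barcodes lay between 0.8 and 1.2 times the 3 limits. In CPM among UMIs other than hemoglobin, *Gata1* stood at 88.7, 135, 185, and 216 from the lowest to the highest range. *Klf1* stood at 142, 317, 503, and 664, *Tal1* at 100.9, 207, 425, and 701, and *Zfpm1* at 212, 355, 585, and 790.4. The log2 ratio of the last over the first range was 1.28 (0.96 to 1.59) for *Gata1*, 2.23 (2.05 to 2.40) for *Klf1*, 2.80 (2.62 to 2.97) for *Tal1*, and 1.90 for *Zfpm1*, and -0.41 (-1.54 to 0.52) for *Gata2*, whose interval held 0. With limits of 0.5%, 5%, and 30% in place of these, *Gata2* was -1.02 (-1.86 to -0.30), without 0. In CBM alone *Gata2* stood at 140.0 (123 to 159), 17.02 (8.16 to 31.3), and 23.1 (4.76 to 67.5) in the 3 ranges with at least 20 barcodes, the first above the others, and in TBM alone at 33.4 (25.1 to 43.4), 4.995 (1.36 to 12.8), 31.7 (20.1 to 47.6), and 31.5 (10.2 to 73.6), the second under the others and the last 2 within the interval of the first. In CS alone it stood at 40.9 (39.1 to 42.7) and 11.7 (4.29 to 25.4) in the ranges under 1% and from 10% to 50%, lower in the latter. In TS alone it stood at 21.6 (20.7 to 22.6), 12.99 (5.61 to 25.6), and 3.91 (0.0991 to 21.8) in the first 3 ranges, each lower than the one before, with intervals that overlapped. The pooled ratio thus mixes libraries that differ, as its first range is mostly of TS and its last of CBM and TBM. The other 4 factors took a growing part of the RNA other than hemoglobin. In CBM alone *Klf1* stood at 199.5 (179 to 222), 577 (517 to 642), and 862 (709.7 to 1037) in the ranges with at least 20 barcodes (the second was left out), and in TBM alone at 177 (157 to 199), 301 (264 to 341), 442 (395 to 493), and 435 (339 to 551), where the last 2 ranges did not differ beyond their intervals. *Gata1* stood at 127 (110.4 to 145), 206 (171 to 246), and 208 (137 to 302) in CBM and at 100.1 (85.4 to 117), 155 (129 to 185), 153 (126 to 185), and 221 (154 to 307) in TBM. In CPM among all UMIs the last step turned, with *Gata1* at 135 and then 83.1, *Klf1* at 368 and 256, *Tal1* at 310.5 and 270.3, and *Zfpm1* at 428 and 305. The median depth fell from 38030.5 to 10542 UMIs over the ranges, and the first range was mostly of TS. Per barcode, each of these 4 factors had fewer UMIs in the last range than in the first. The 3636 barcodes of the first range held 13471 UMIs of *Gata1*, 21530 of *Klf1*, 15329 of *Tal1*, and 32185 of *Zfpm1*. The 92 barcodes of the last held 87, 268, 283, and 319 in that order. The rise among UMIs other than hemoglobin thus does not show more of a factor per barcode, and the part of depth was not tested.

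**Figure D5:**
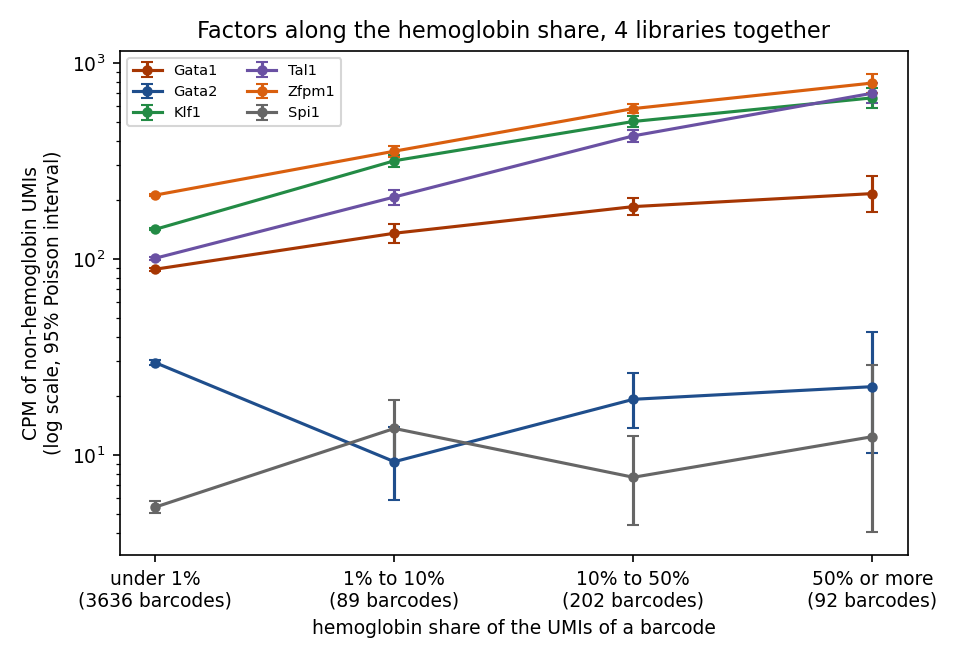
CPM among non-hemoglobin UMIs (log scale, 95% Poisson intervals) of the factors in 4 ranges of hemoglobin share, with the barcodes of all libraries together. *Gata1*, *Klf1*, *Tal1*, and *Zfpm1* rise over the ranges, *Klf1* from 142 to 664, while *Gata2* and *Spi1* stay under 30 throughout.

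Over the 38 class and library profiles with at least 50 barcodes, the genes most like each factor in log2(CPM + 1) were named by Pearson correlation, among genes with at least 50 CPM in 1 profile. The profiles share libraries and classes, so r is a description. *Sept8* (r = 0.94), *Optn*, and *Mylk3* were most like *Gata1*. *Tspo2* (0.97), *Ces2g*, and *Epor*, the erythropoietin receptor and itself an early erythroid marker here, were most like *Klf1*, and *Icam4* (0.93), *Abhd16a*, and *Pdzk1ip1* most like *Tal1*. *Zfpm1* had *Abcb4* (0.90), *Slc14a1*, and *1300002E11Rik*. *Gata2* had *Slc18a2* (0.96), the monoamine transporter of mast cell and basophil granules, *Csrp3*, and *Rgs1*. *Spi1* had *Pstpip1* (0.97), *Diaph2*, and *Nfam1*, and *Cebpa* had *Ccl9* (0.92), itself a basophil marker here, *Hk2*, and *Csf2rb*. *Cebpe* had *Ncam1* (0.95), *Lbp*, and *Trem3*, *Irf8* had *Ly86* (0.93), *Tifab*, and *Unc93b1*, and *Gfi1* had *Prss57* (0.87), *Mgst2*, and *Adssl1*. Among the factors themselves, r was 0.90 for *Gata1* with *Tal1*, 0.82 for *Gata1* with *Klf1*, 0.78 for *Spi1* with *Cebpa*, and 0.74 for *Cebpe* with *Gfi1*, against -0.72 for *Gata1* with *Spi1* and -0.83 for *Zfpm1* with *Spi1*. On the erythroid side *Gata2* had 0.53 with *Gata1*, 0.52 with *Tal1*, 0.29 with *Zfpm1*, and 0.09 with *Klf1*. On the myeloid side it had 0.44 with *Cebpa*, 0.06 with *Spi1*, -0.21 with *Gfi1*, -0.33 with *Cebpe*, and -0.45 with *Irf8*.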

How the data were processed

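Droplet 3′ libraries of CS, TS, CBM, and TBM were made by the authors with barcodes and UMIs, and the deposited values are raw counts of UMIs per gene and barcode, before any correction for free RNA or filter on genes. Per the submitters' processing notes they were made with Cell Ranger 4.0, and the labels name the mouse build mm10 (GRCm38). The study's own cleaning (subtraction of free RNA and a minimum of 350 genes) is not in these counts.

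Barcodes with at least 1000 genes and at most 10% mitochondrial UMIs were kept, whatever Scrublet called (24 in CS, 89 in TS, 39 in CBM, and 50 in TBM). Pearson residuals (theta 100) of 18847 genes, with the 10 factors and 17 further ones left out, gave 50 principal components, 20 neighbors, and Leiden clusters at resolution 1.2 (Python 3.11.15, scanpy 1.11.5, leidenalg 0.10.2). Clusters were named by hand from lists of markers and from their leading genes. The factors, the further genes, the lists, and the comparisons were chosen with earlier results of these data known. The methods announce 5 sorted gates and then list 6.

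Counts were summed per class and library. Where a library had 0 UMIs of a gene, the ratio was taken against 3 counts. Ratios used SciPy 1.17.1 intervals, and the scripts were tested on simulated data. edgeR 4.0.16 (R 4.3.3) served only for TMM scaling. Free RNA came from barcodes under 100 UMIs. Thinning drew 2000 UMIs per barcode without replacement. Expected co-detection was the product of both shares times the barcodes. Further genes are named where they passed 2-fold in a comparison given here or were among the 5 highest of a class, and the 3 most alike genes by r. As there was 1 library per group, no p-value or SD was computed. Gene positions are from GENCODE vM21 and promoters from RefSeq.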

Additional observations from a re-analysis of the deposited data

Results flagged for a closer look

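3 factors moved in opposite directions with the tumor in spleen and in BM, with both intervals on their side of 0. The difference between the tissues was not tested, since each value compares 1 library with 1 library. In HSPC-like barcodes *Tal1* had a log2 ratio of -0.26 in TS over CS and 0.15 in TBM over CBM. In the same class *Gfi1* had -0.56 in TS over CS and 0.39 in TBM over CBM, and in BM it lay under its free RNA level in both libraries, with a free RNA ratio of 0.89. The GMP and neutrophil markers of the class, given above for BM, were also higher in TBM than in CBM. In spleen they went the other way from *Gfi1*. The GMP markers summed to 2843 CPM in CS and 3150 in TS, and the neutrophil markers to 3.03 and 17.4 CPM, with 6 and 1 at 0. Their part was not tested. In megakaryocyte-like barcodes *Klf1* had 0.64 in TS over CS and -0.97 in TBM over CBM, and its level reached its free RNA level in CBM alone. The early erythroid markers of that class moved in the same direction as *Klf1* in each tissue, and their part was not tested.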

How the results depend on the processing

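Of the 50 ratios past 2-fold, 39 remained with at least 2000 genes per barcode, 49 with at most 5% mitochondrial UMIs, 28 without the 5% highest Scrublet scores, 42 without the 5% of barcodes with the most UMIs, 27 with barcodes classed by their own markers, 50 without hemoglobin, mitochondrial, and ribosomal protein genes in the total, 45 with TMM scaling, and 18 with free RNA subtracted at 10%, where 23 had no value. Ratios with no value also numbered 9 with at least 2000 genes, 7 without the highest Scrublet scores, and 10 with barcodes classed by their own markers. With 1.5-fold as the limit, 95 of the 284 were called, against 14.1% to 45.5% of all genes in the single comparisons. Of the 7 at or over free RNA, *Irf8* in HSPC-like TS over CS, *Gata2* in Scin-high CS over CBM, and *Klf1* in Scin-high TBM over CBM stayed past 2-fold in each of these alternatives that gave a value, but within single clusters with at least 20 barcodes of both libraries, chosen after seeing the data, *Irf8* stood at -0.61 in cluster 19 and *Gata2* at -0.66 and -0.87 in clusters 16 and 6. With barcodes classed by their own markers, *Irf8* in GMP-like TBM over CBM turned to -1.82, and *Gfi1* and *Zfpm1* in mast-like CS over CBM to -1.25 and 1.40. In cluster 5 alone the first turned to -0.96. *Gfi1* in clusters 1, 2, and 9 and *Cebpe* in clusters 2 and 9 of early erythroid-like TS over CS gave no value, since CS had 0 UMIs and 3 counts there would exceed the level in TS. Without the highest Scrublet scores, *Klf1* in GMP-like TBM over CBM turned to 1.24, *Gata2* and *Irf8* in hemoglobin-rich erythroid-like CS over CBM and TS over TBM to 0.75 and 0.20, and *Gata1* in monocyte-like CS over CBM to -0.00134, and without the barcodes of most UMIs the last turned to -2.07. With free RNA subtracted, *Zfpm1* in GMP-like TS over TBM turned to -0.46, *Irf8* in Scin-high TS over CS to 3.38, and *Irf8* and *Klf1* in basophil-like TS over CS to 1.54 and 0.76. *Cebpe* in GMP-like TS over CS fell short of 2-fold with barcodes classed by their own markers (-0.37) and with TMM scaling (-0.89). The causes were not tested. *Gata1* with *Spi1* was seen in 2.53% (CS), 1.54% (TS), 1.999% (CBM), and 1.73% (TBM) of Kit-positive barcodes at 5000 UMIs, in 21.9%, 11.9%, 11.4%, and 9.59% without thinning, and in 4.74%, 1.66%, 2.85%, and 2.02% with 2 UMIs of each. Observed over expected left its interval at 2000 UMIs without thinning in CS (0.718), TS (0.540), and CBM (0.685). With expectation within classes it did so in CS (0.733), TS (0.908), and TBM (0.861). TBM without thinning and CBM within classes, given above, also came closer to 1 but stayed inside their intervals. The classes with the highest level of a factor stayed the same except that with 2000 genes *Spi1* led in dendritic-like and *Cebpe* in GMP-like barcodes, and with barcodes classed by their own markers *Gfi1* in neutrophil-like ones. With 2000 genes the neutrophil-like class, with 53 barcodes in TBM before, fell under the minimum of 50 and gave no level. Those 2 changes are thus not changes of order. No paired analysis was possible because each group had 1 library, and for the same reason no replicate could be left out. Small classes, such as GMP-like CS with 53 barcodes, limit what the ratios can show.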

Other observations

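The mast-like barcodes (69 in CS, 70 in CBM, and 60 in TBM, with TS under 50) held factors of both sides. *Gata2* was at 826 CPM (772 to 882) in CS, 753 (703 to 805) in CBM, and 638 (586 to 694) in TBM, *Cebpa* at 71.3 CPM in CS, 87.6 in CBM, and 77.4 in TBM, and *Spi1* at 99.4 CPM in CS, 89.3 in CBM, and 104 in TBM, while *Gata1* was at 50.6 CPM in CS, 71.1 in CBM, and 49.7 in TBM and *Klf1* at 30.9 CPM in CS, 42.5 in CBM, and 38.1 in TBM. *Gata2* and *Cebpa* lay over their free RNA in the 3 libraries, *Gata1* and *Klf1* in CBM and TBM, and *Spi1* in CS. The T, NK or innate lymphoid-like barcodes of spleen held *Spi1* at 112 CPM in CS and 71.9 in TS, over its free RNA in both libraries. The dendritic and monocyte markers of this class, whose sums are given above, were also higher in CS, and dendritic-like barcodes held *Spi1* at 305 CPM in CS; their part was not tested.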
